A study of Homo sapiens with 52 samples.

Results

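The stathmin family comprises STMN1, STMN2, STMN3 and STMN4, 4 of the 63241 genes in the deposited count table, found by matching each Ensembl identifier to its symbol. Message levels of the 4 genes were compared between cell bodies and neurites of human neurons, and after knockdown of either of a pair of RNA-binding proteins, hnRNPA1 and TDP-43.

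Stathmins bind tubulin dimers and promote the shortening of microtubules, and phosphorylation by growth and stress kinases releases the tubulin. STMN1 is cytosolic and is found in many cell types. STMN2, also called SCG10, STMN3, also called SCLIP, and STMN4, also called RB3, are neuronal proteins that palmitoylation anchors to Golgi-derived vesicles and growth cones. STMN2 takes part in axon growth and regeneration. TDP-43, encoded by TARDBP, binds UG-rich RNA and represses a cryptic exon in the first intron of STMN2. When TDP-43 is lost, that exon is spliced in and gives a shortened, prematurely polyadenylated message. hnRNPA1 is another nuclear splicing regulator, and UAGGG is a motif it is known to bind.

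All samples were i3Neurons, which are neurons made from the induced pluripotent stem cell line WTC11 by adding doxycycline, which switches on a neurogenin transgene. They were replated on day 3 onto inserts whose membranes have 1 µm pores, so that neurites grow through and cell bodies stay above, and were harvested on day 17. Untreated neurons carried no guide RNA and gave 4 neurite and 4 soma libraries. Both knockdown experiments used CRISPR interference: a Cas9 that cannot cut DNA carries a repressor domain to the gene matched by its guide RNA and lowers transcription there. Guides were delivered by transduction and the cells selected. The hnRNPA1 experiment had 6 libraries from neurons with a guide against hnRNPA1 and 6 with a non-targeting guide in each fraction. The TDP43 experiment had 5 with a guide against TDP43 and 5 with a non-targeting guide in each fraction, and TDP43 knockdown soma sample 5, with 541 counts in all, was left out. Each library was made from 10 ng of total RNA, with version 2 of the kit for untreated neurons and version 3 for both knockdown experiments, so kit and experiment cannot be told apart. All groups come from 1 cell line. Nothing in the labels says whether samples of a group were cultured separately, and every p-value here therefore reflects the spread of libraries, possibly of technical origin.

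In units of 1000000 counts, depth ran from 2.54 to 4.35 in untreated neurites, from 5.21 to 10.5 in untreated soma and from 6.26 to 28.9 in the knockdown experiments. All 10 neuron markers, among them TUBB3, MAP2 and SYN1, stood above 1 CPM (counts in 1000000 after TMM scaling within the experiment) in every group. Summed pluripotency markers came to 1.84 to 17.9 CPM. HNRNPA1 message stood at 38.9% of control in soma and 34.1% in neurites of its knockdown. TARDBP message stood at 17.7% of control in soma and 35.8% in neurites of its knockdown. Transcripts of 7SL, an RNA of the signal recognition particle, took 0.96 to 2.17% of counts in soma and 3.52 to 29.5% in neurites of the knockdown experiments.

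The motifs known for the 2 knocked-down proteins were searched in the sense strand of each gene's longest protein-coding transcript (GENCODE release 29, 1712 to 2351 bases), without introns. UGUGUG, a UG repeat of the kind TDP-43 binds, occurred 0 times in STMN1, 0 in STMN2, 1 time in STMN3 and 5 times in STMN4, counting overlaps. UAGGG occurred 2 times in STMN1 and 0 times in the other members. Each motif was present in 65.2% of 19639 protein-coding genes searched in the same way. A match is a description of the letters and not a binding site, and the STMN2 cryptic exon lies in an intron that was not searched. The STMN1 and STMN3 matches are shown as examples of both motifs, 5′ to 3′ with the motif in capitals, and the match ending the list and the STMN3 match lie in 3′ UTRs, the other in a 5′ UTR.
STMN3, GRCh38 chr20:63639711-63639732, minus strand: uaaacaccUGUGUGuuuaagac
STMN1, GRCh38 chr1:25906101-25906121, minus strand: ggagacaaUAGGGggcguggg
STMN1, GRCh38 chr1:25900847-25900867, minus strand: uguuguuuUAGGGgcuaaagg

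All 4 genes passed the low count filter in every fit. STMN1 (ENSG00000117632.23) lies on the minus strand of hg38 chromosome 1, from 25884181 to 25906991, and had 2221 to 15735 counts per library. STMN2 (ENSG00000104435.14) lies on the plus strand of chromosome 8, from 79610814 to 79666175, and had 946 to 16847. STMN3 (ENSG00000197457.10), on the minus strand of chromosome 20 from 63639705 to 63657682, had 122.5 to 8713, and STMN4 (ENSG00000015592.17), on the minus strand of chromosome 8 from 27235323 to 27258420, had 384 to 5261. Positions are from GENCODE release 29. Counts were fractional in 35 libraries for STMN1, 25 for STMN2, 35 for STMN3 and 15 for STMN4, so some of their reads were counted as fractions. The relatives stayed low, with at most 51 counts in any library for STMND1, 25 for the pseudogene STMN1P1 and 3 for STMN1P2. The genes annotated inside the STMN1 locus had at most 23 counts.

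**Figure D1:**
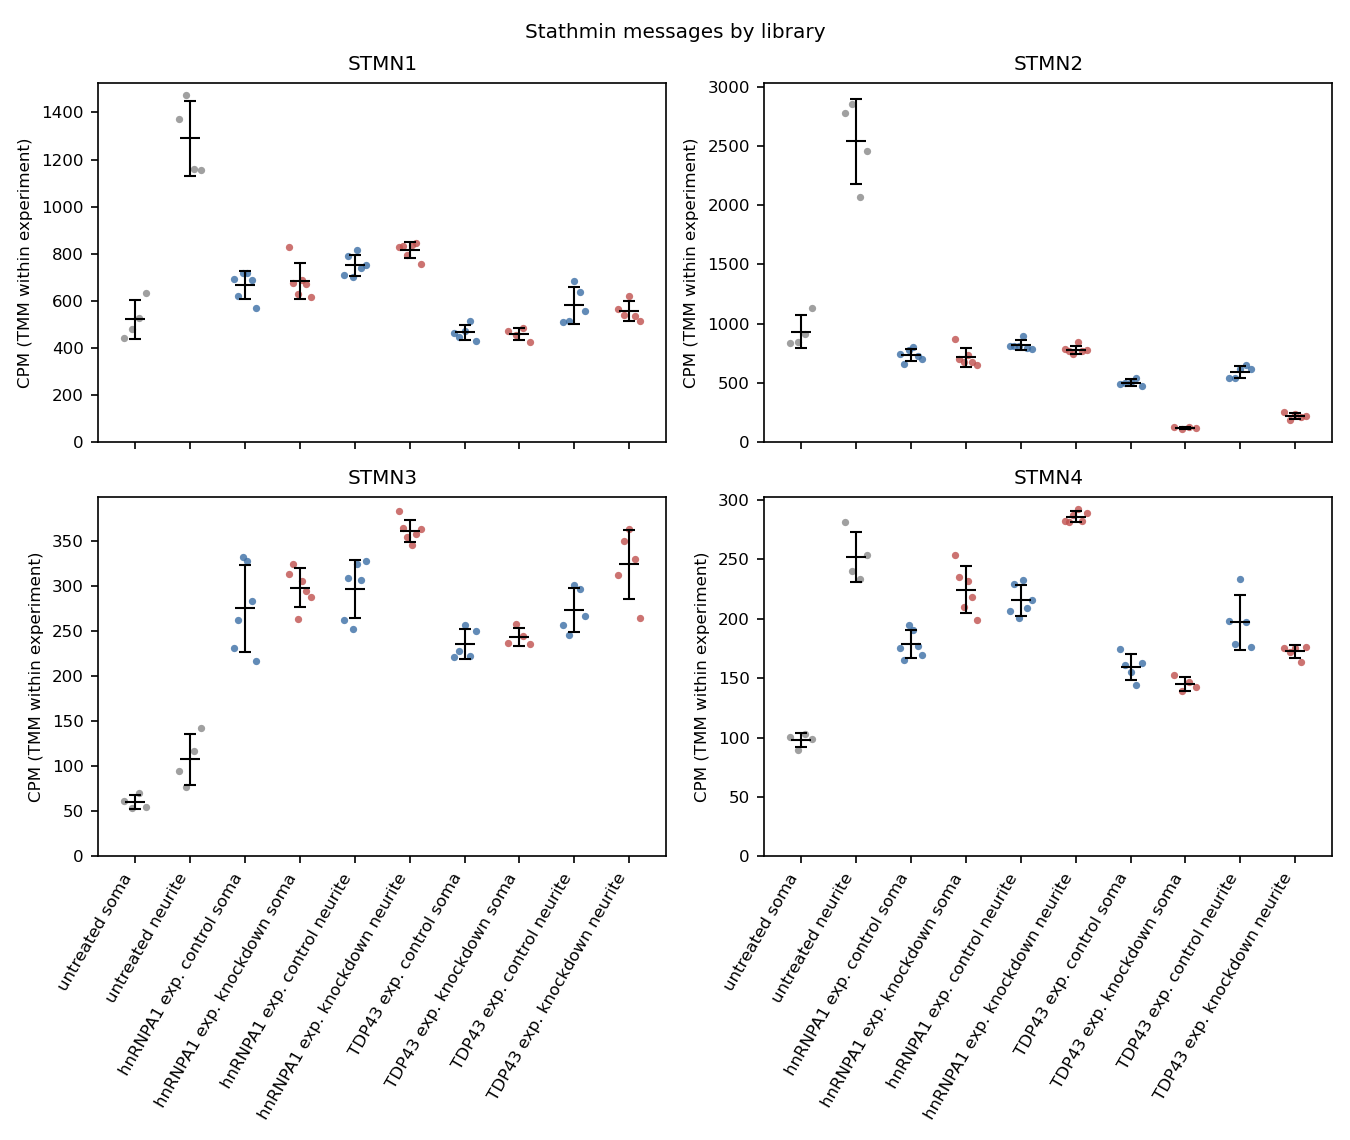
CPM (TMM within each experiment, linear axis from 0) of the 4 stathmins by group, with 1 point per library and black bars for mean and SD. STMN2 fell to 122 CPM in soma and 222 CPM in neurites after TDP43 knockdown, and the other members stayed nearer to their controls. Levels in different experiments were scaled separately.

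The loss of STMN2 was the strongest response of the family. In soma the 5 control libraries of the TDP43 experiment held 471, 487, 499, 509.5 and 543 CPM of STMN2, and the 4 knockdown libraries 113, 118, 129 and 129 CPM. Every knockdown library lay far below every control. The mean fell from 502 ± 27.0 to 122 ± 8.29 CPM (SD, n = 5 and 4), a log2 change of −2.04 ± 0.08 (SE; edgeR adjusted p = 4.58e-17), which leaves 24.4% of the control level. Of all genes tested, 0.0906% had a lower log2 change. In such bulk samples, fewer cells with the message and less message per cell cannot be told apart. The table gives 1 count per gene, so full-length and shortened STMN2 messages are not separated.

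In neurites the controls held 537, 543, 618, 620.2 and 652 CPM of STMN2, and the knockdown libraries 189, 213, 216, 236 and 257 CPM. The groups did not overlap here either. The log2 change was −1.42 ± 0.07 (edgeR adjusted p = 3.882e-14), which leaves 37.5% of the control level. The loss was smaller in neurites than in soma by 0.62 ± 0.11 on the log2 scale (interaction of knockdown and fraction, edgeR adjusted p = 0.0004153). With library sizes in place of TMM this difference was 0.71 and did not pass (adjusted p = 0.0599). TARDBP message was also less reduced in neurites, as given above, and its part in this difference was not tested. STMN2 alone of the 4 members passed in this interaction, where 10.5% of all genes were called and 5.8% called higher.

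STMN2 was the 1 member called in soma after TDP43 knockdown, where 18.9% of all genes were called and 9.55% called lower. STMN1 stood at 428, 448, 465, 474 and 516 CPM in control soma and at 426, 456, 470.3 and 483 CPM in knockdown soma. These ranges overlap over most of their width, and the log2 difference was −0.02 with a 95% interval of −0.19 to 0.14. For STMN3 the interval in soma was −0.11 to 0.21, and for STMN4 it was −0.27 to 0.00, with adjusted p = 0.735 and 0.173 (edgeR).

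In neurites 3 of the 4 members were called after TDP43 knockdown, with STMN2 and STMN4 lower and STMN3 higher. Of all genes 24.7% were called there, 10.8% lower and 13.9% higher. STMN3 held 246, 257, 267, 297 and 302 CPM in controls and 265, 313, 330.3, 350.4 and 363 CPM in knockdown neurites. Of the 5 knockdown libraries 4 lay above all controls. Its log2 change was 0.25 ± 0.07 (edgeR adjusted p = 0.0152). The call was lost without knockdown neurite replicate 3 (0.20), and with library sizes the change was 0.33 and did not pass.

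STMN4 held 176, 179, 197, 198 and 234 CPM in control neurites and 163, 172, 175, 175 and 177 CPM in knockdown neurites. The 2 groups touch at 176 to 177 CPM. Its log2 change of −0.19 ± 0.07 (edgeR adjusted p = 0.0341) was lost without control neurite replicate 1, 4 or 5, without knockdown neurite replicate 2, 3 or 4, and with library sizes (−0.10). Without control neurite replicate 4, whose 7SL share was 29.5%, it was −0.12. STMN1 stood at 510.1 to 682 CPM in control and 514 to 622 CPM in knockdown neurites, with a log2 difference of −0.06 and an interval of −0.22 to 0.09.

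**Figure D2:**
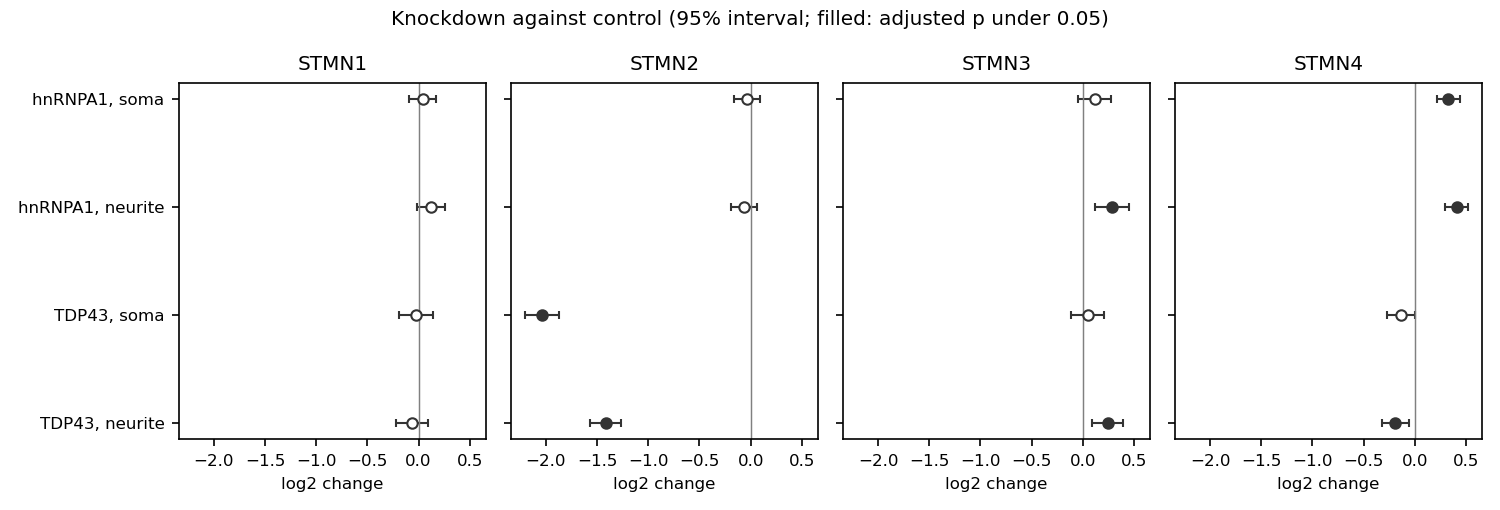
Log2 change of each stathmin after knockdown (x axis; edgeR with TMM, 95% intervals), with filled points where the adjusted p is under 0.05. STMN2 lies at −2.04 and −1.42 after TDP43 knockdown, and the other points lie between −0.19 and 0.41. With library sizes the STMN1 points for hnRNPA1 in both fractions and for TDP43 in neurites change sign, and those of STMN3 in neurites and of STMN4 in TDP43 neurites no longer pass.

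After hnRNPA1 knockdown the pattern was partly different. Of the called changes, the rise of STMN3 in neurites alone was seen after both knockdowns. STMN4 rose in both fractions, STMN3 rose in neurites, and STMN1 and STMN2 did not pass in either. In soma 1 of the 4 members was called, where 7.07% of all genes were called and 3.77% called higher. In neurites 2 of 4 were, where 16.1% were called and 8.9% called higher.

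STMN4 in control soma ran from 165.5 over a median of 176 to 195 CPM, and in hnRNPA1 knockdown soma from 199 over 225 to 254 CPM. The lowest knockdown library lay above the highest control. The mean rose from 179 ± 11.7 to 225 ± 19.8 CPM (SD, n = 6 and 6), a log2 change of 0.33 ± 0.05 (edgeR adjusted p = 0.0001009). In neurites it ran from 201 over 212 to 233 CPM in controls and from 282 over 285 to 293 CPM after knockdown, again with no overlap, and the log2 change was 0.41 ± 0.05 (edgeR adjusted p = 2.834e-06). With library sizes both changes were 0.27 and passed.

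STMN3 in neurites ran from 252 over 308 to 328 CPM in controls and from 346 over 361 to 383 CPM after hnRNPA1 knockdown. All 6 knockdown libraries lay above all 6 controls. The log2 change of 0.28 ± 0.08 (edgeR adjusted p = 0.0161) was 0.15 with library sizes and then did not pass. It also did not pass without control neurite replicate 1 (0.25) or 3 (0.22). In soma the STMN3 ranges overlapped, at 217 to 333 CPM in controls and 264 to 325 CPM after knockdown, with a log2 difference of 0.12 and an interval of −0.05 to 0.28.

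STMN2 stood at 734.5 ± 51.7 CPM in control soma and 716 ± 79.6 CPM in hnRNPA1 knockdown soma, and at 818.5 ± 39.3 and 780.3 ± 33.8 CPM in the matching neurites (SD, n = 6 each). The log2 differences of −0.04 and −0.07 had intervals of −0.16 to 0.09 and −0.20 to 0.06, which do not include the −2.04 and −1.42 seen after TDP43 knockdown. With library sizes the neurite difference was −0.21 and passed (adjusted p = 0.0172). STMN1 differed by 0.04 in soma and 0.12 in neurites, neither past the threshold, and with library sizes both were −0.02. No member passed in the interaction of hnRNPA1 knockdown and fraction, where 0.177% of all genes were called by edgeR (35 genes, and 78 by DESeq2), and the 4 unadjusted p ran from 0.155 to 0.719.

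The 2 knockdowns were compared directly in a fit of both experiments. The STMN2 change was higher after hnRNPA1 than after TDP43 knockdown by 1.99 ± 0.10 in soma and 1.33 ± 0.10 in neurites on the log2 scale (edgeR adjusted p = 6.136e-21 and 4.232e-15). The STMN4 change was also higher after hnRNPA1 knockdown, by 0.46 ± 0.09 and 0.58 ± 0.09 (edgeR adjusted p = 0.000184 and 1.726e-06). In these comparisons 2 of 4 members were called in each fraction, where 12.7% of all genes were called in soma (6.12% higher) and 16.8% in neurites (6.3% higher). STMN1 and STMN3 did not pass, with differences of 0.05 and 0.06 in soma and 0.17 and 0.02 in neurites, of which the latter pair changes sign with library sizes.

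Summed markers of neural progenitors were higher in every knockdown library than in every control of the same fraction, and their part in the stathmin changes was not tested. Of 8 tested, 2 rose and 0 fell in hnRNPA1 knockdown soma, 3 and 0 in its neurites, and 1 and 2 in each fraction after TDP43 knockdown. Of all genes, 7.07% were called in hnRNPA1 knockdown soma (3.77% higher) and 16.1% in its neurites (8.9% higher). After TDP43 knockdown 18.9% were called in soma (9.55% lower) and 24.7% in neurites (13.9% higher, 10.8% lower). The 10 summed markers ran from 190 to 241.5 CPM in control and from 248.5 to 278 CPM in TDP43 knockdown soma, with 5 of 10 above 1 CPM in each and none at 0 in all libraries of a group. In the hnRNPA1 experiment the sums were 247 to 271 and 326 to 364 CPM in soma, with 7 of 10 above 1 CPM in each. Neurites went the same way, at 363.5 to 434 and 449 to 544 CPM in the TDP43 experiment and at 454.5 to 562 and 569 to 717 CPM in the hnRNPA1 experiment. Neuron markers summed to 6898 to 8516 CPM in control and 9776 to 10960 CPM in TDP43 knockdown neurites, where 5 of 10 rose and 2 fell. Of 4 nuclear RNAs tested, 3 rose and 0 fell in TDP43 knockdown soma, and 0 rose and 2 fell in neurites. Glia markers summed to 17.5 to 21.1 CPM in control and 12.9 to 15.0 CPM in TDP43 knockdown soma, with 2 of 10 above 1 CPM in each. Pluripotency markers summed to 2.68 to 4.44 and 2.19 to 2.47 CPM there, with 1 of 6 above 1 CPM, and the 1 tested fell. The sums of cycling markers overlapped between knockdown and control in both experiments and fractions. The part of these lists in the stathmin changes was not tested either.

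The ratio of STMN2 to STMN1 counts within 1 library does not depend on scaling. In control soma of the TDP43 experiment it ran from 1.048 to 1.113, and after TDP43 knockdown from 0.247 to 0.277. In neurites it ran from 0.909 to 1.109 in controls and from 0.350 to 0.453 after knockdown. No knockdown library reached the lowest control. The differences in mean log2 ratio were −2.02 in soma and −1.37 in neurites (2-sided exact permutation tests, p = 0.0159 and 0.00794, the smallest the group sizes allow, adjusted p over 9 comparisons 0.0286 and 0.0238). After TDP43 knockdown the ratio was higher in neurites than in soma by 0.58 on the log2 scale, with no overlap (exact permutation p = 0.0159, adjusted 0.0286).

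After hnRNPA1 knockdown the ratio was lower as well, by far less. It ran from 1.028 to 1.162 in control neurites and from 0.913 to 1.027 in knockdown neurites, and every knockdown library lay below every control. The mean log2 ratio differed by −0.19 (exact permutation p = 0.00216, adjusted 0.0195). In soma the difference of −0.08 passed (exact permutation p = 0.0195, adjusted 0.0292) although the ranges, 1.050 to 1.229 and 1.000 to 1.072, overlapped. It no longer passed without control soma replicate 1, 3, 4 or 6 or knockdown soma replicate 1, 2 or 5, and without control soma replicate 3 it was −0.05. Neurites also lay below soma within hnRNPA1 knockdown, by −0.13 (exact permutation p = 0.00649, adjusted 0.0238).

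In untreated neurons the ratio ran from 1.73 to 1.89 in soma and from 1.78 to 2.12 in neurites. It lay above that of every library of the knockdown experiments, where the highest was 1.229. Between fractions it differed by 0.13 in untreated neurons, −0.01 in controls of the hnRNPA1 experiment and −0.07 in those of the TDP43 experiment, none past the threshold (exact permutation, adjusted p = 0.11, 0.777 and 0.232).

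**Figure D3:**
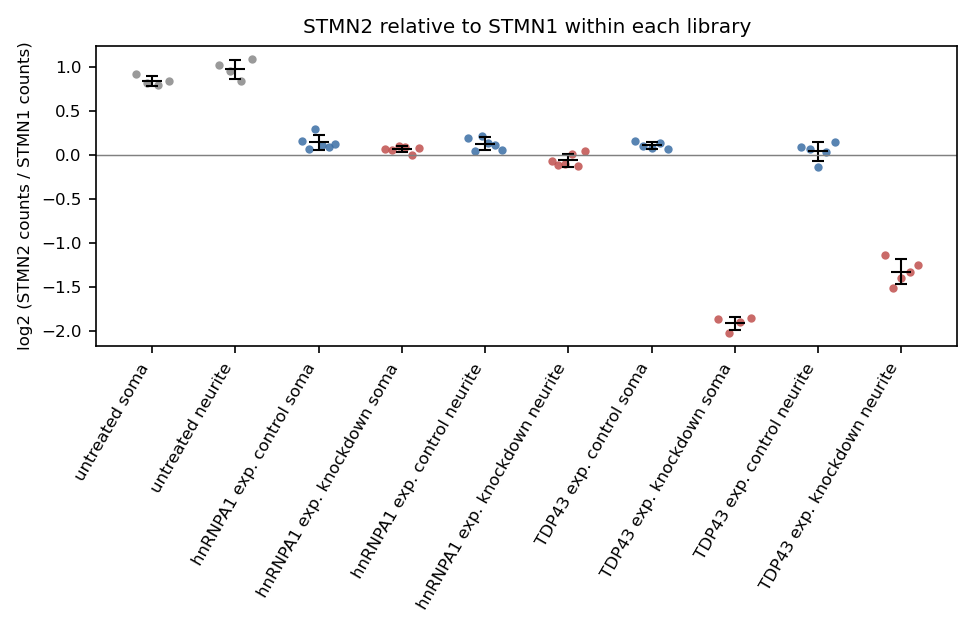
Log2 of STMN2 over STMN1 counts in each library (y axis), with 1 point per library and black bars for mean and SD in each group. Means are −1.91 and −1.33 in soma and neurites after TDP43 knockdown, between −0.06 and 0.14 in the other knockdown experiment groups, and 0.84 and 0.97 in untreated neurons.

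The make-up of the family changed with TDP43 knockdown. In control soma of the TDP43 experiment STMN2 made up 35.9 to 38.1% of all stathmin counts, STMN1 32.6 to 36.2%, STMN3 15.6 to 19.1% and STMN4 10.1 to 13.0%. After TDP43 knockdown STMN2 made up 11.7 to 13.0% in soma and 15.1 to 19.6% in neurites. STMN1 then held the largest share, at 46.2 to 48.1% in soma and up to 44.5% in neurites. In untreated neurons STMN2 held 56.5 to 61.4% over both fractions and STMN3 1.66 to 4.37%.

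Levels between the genes were compared per kilobase of the longest protein-coding transcript. In control soma of the TDP43 experiment STMN1 stood at 272 ± 19.1, STMN2 at 226 ± 12.1, STMN3 at 100.3 ± 7.04 and STMN4 at 69.8 ± 4.86 CPM per kilobase (SD, n = 5). After TDP43 knockdown STMN2 was lowest of the 4 in soma, at 55.0 ± 3.73 beside STMN4 at 63.6 ± 2.61 CPM per kilobase (SD, n = 4), and their ranges did not overlap. With the union of all exons as length, STMN2 led the control soma at 212 and STMN1 stood at 74.4 CPM per kilobase, beside STMN3 at 77.8. After knockdown STMN2 then stood at 51.8 and STMN4 at 44.1 CPM per kilobase, so the order of these genes depends on the length chosen.

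Across all 10 groups, on 1 TMM scale over the 51 libraries, STMN2 ran from 135 ± 8.14 CPM in TDP43 knockdown soma to 1938 ± 237 CPM in untreated neurites. Untreated neurites stood clear of all other groups, untreated soma came next at 851 ± 126 CPM, and the ranges of neighbouring groups overlapped from there down to TDP43 control soma at 557 ± 31.7 CPM. Both TDP43 knockdown groups stood apart below, with neurites at 238 ± 27.98 CPM. STMN1 covered a narrower span, from 476 ± 76.3 CPM in untreated soma to 986 ± 103 CPM in untreated neurites, and except for that highest group all neighbours overlapped. With library sizes STMN1 was lowest in TDP43 control neurites (463 ± 36.7 counts in 1000000), and untreated soma (792 ± 126) came next to untreated neurites (845 ± 56.5). STMN2 kept both untreated groups highest and both TDP43 knockdown groups lowest.

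STMN3 and STMN4 were lowest in untreated soma on the joint TMM scale. STMN3 stood at 55.2 ± 7.66 CPM there and at 82.7 ± 22.7 CPM in untreated neurites, and its other 8 groups lay between 262 and 361 CPM with overlapping neighbours. STMN4 stood at 89.6 ± 5.76 CPM in untreated soma, apart from the next group, TDP43 knockdown soma, at 161 ± 5.18 CPM. It was highest in hnRNPA1 knockdown neurites, at 285.5 ± 6.03 CPM, apart from all other groups. With library sizes the order differed. STMN3 was then lowest in untreated neurites (71.8 ± 23.0 counts in 1000000, 91.5 ± 9.68 in untreated soma) and STMN4 in TDP43 knockdown neurites (147 ± 21.7, 149 ± 4.75 in untreated soma). STMN4 was then highest in hnRNPA1 knockdown soma (252 ± 15.2), overlapping the neurites (238 ± 17.1).

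In untreated neurons all 4 stathmins were higher in neurites than in soma with TMM scaling, against 28.7% of all genes called higher and 56.5% called in all, but with library sizes STMN1 and STMN4 no longer passed and STMN3 turned lower. STMN2 held 835, 841, 913 and 1135 CPM in soma and 2067, 2453, 2775 and 2854 CPM in neurites. STMN1 held 442, 479, 529 and 635 CPM in soma and 1156, 1159, 1373 and 1475 CPM in neurites. STMN4 held 89.6, 98.7, 101 and 103 CPM in soma and 233, 240.2, 254 and 281 CPM in neurites. On this TMM scale, the lowest neurite library of each of the 3 lay above the highest soma library. STMN3 held 53.7, 55.0, 61.9 and 70.6 CPM in soma and 77.0, 94.6, 117 and 143 CPM in neurites, with a small gap.

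The log2 ratios of neurites to soma with TMM were 1.31 ± 0.13 for STMN1, 1.45 ± 0.14 for STMN2, 0.86 ± 0.14 for STMN3 and 1.36 ± 0.10 for STMN4 (edgeR adjusted p = 1.505e-08, 7.956e-09, 2.543e-05 and 6.083e-11). The median over all 18577 genes was −0.21. With library sizes the 4 ratios were 0.09, 0.23, −0.33 and 0.15, of which STMN2 passed (adjusted p = 0.0435), while the median over all genes shifted to −1.40. All 4 members lay above the median gene on both scales. A change of scaling shifts all genes by nearly the same amount, so the second scale is not a separate check of this. The members' place relative to equal shares of the library rests on the scaling. Some markers of other cells differed between fractions as well, on the TMM scale and not in 1 direction. In untreated neurons the 10 neural progenitor markers summed to 87.1 to 91.7 CPM in soma and 235.5 to 267.5 CPM in neurites, with 6 of 10 above 1 CPM in each and HES5 at 0 in neurites. The 10 cycling markers summed to 33.2 to 48.9 and 55.7 to 70.3 CPM, with 9 and 8 above 1 CPM. The sum of the neuron markers was higher too, at 6244 to 7426 CPM in soma and 19400 to 24690 CPM in neurites. Of 10 neuron markers tested, 5 were called higher in neurites and 2 lower. Of 7 cycling markers tested 3 were higher and 1 lower, and of 5 progenitor markers 3 and 0, where 28.7% of all genes were called higher. Glia markers overlapped, at 45.5 to 63.7 CPM in soma and 42.0 to 49.9 CPM in neurites. Mesenchymal markers were lower in neurites, at 69.5 to 89.1 CPM in soma and 56.2 to 66.8 CPM in neurites. In TDP43 controls 7 of 8 cycling markers tested were higher in neurites, where 24.1% of all genes were called higher. In hnRNPA1 controls 5 of 6 were, where 23.5% of all genes were called higher. The part of these marker lists in the stathmin ratios was not tested.

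In controls of the knockdown experiments the same ratios were small with TMM and negative with library sizes. In hnRNPA1 experiment controls they were 0.17, 0.16, 0.11 and 0.27 for STMN1 to STMN4 with TMM, with 3 of 4 called where 48.3% of all genes were called and 23.5% called higher, and −0.18, −0.19, −0.24 and −0.08 with library sizes. In TDP43 experiment controls they were 0.32, 0.24, 0.21 and 0.30 with TMM, all 4 called where 46.5% of all genes were called and 24.1% called higher, and −0.32, −0.38, −0.41 and −0.33 with library sizes. The medians over all genes were −0.05 and −0.03 with TMM and −0.39 and −0.63 with library sizes. In hnRNPA1 controls the call of STMN1 was lost without control soma replicate 3 (0.13) or 5 (0.15) or control neurite replicate 2 (0.15) or 4 (0.14), and that of STMN2 without control soma replicate 2 (0.15), 3 (0.14) or 5 (0.13) or control neurite replicate 4 (0.13). The call of STMN3 in TDP43 controls was lost without control soma replicate 6 (0.19) or control neurite replicate 5 (0.18).

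After hnRNPA1 knockdown the ratios with TMM were 0.25, 0.12, 0.28 and 0.35, with STMN2 not past the threshold and 35.9% of all genes called (19.4% higher), and all 4 were negative with library sizes, from −0.31 to −0.08. Without knockdown soma replicate 1 the STMN2 ratio with TMM was 0.19 and passed. After TDP43 knockdown they were 0.28, 0.86, 0.41 and 0.25, all called where 57.7% of all genes were called and 28.6% called higher. With library sizes the STMN2 ratio was 0.33 and passed (adjusted p = 0.0482), while STMN1, STMN3 and STMN4 turned to −0.26, −0.14 and −0.30. STMN2 after TDP43 knockdown was the 1 neurite ratio of the knockdown experiments that stayed positive on both scales.

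**Figure D4:**
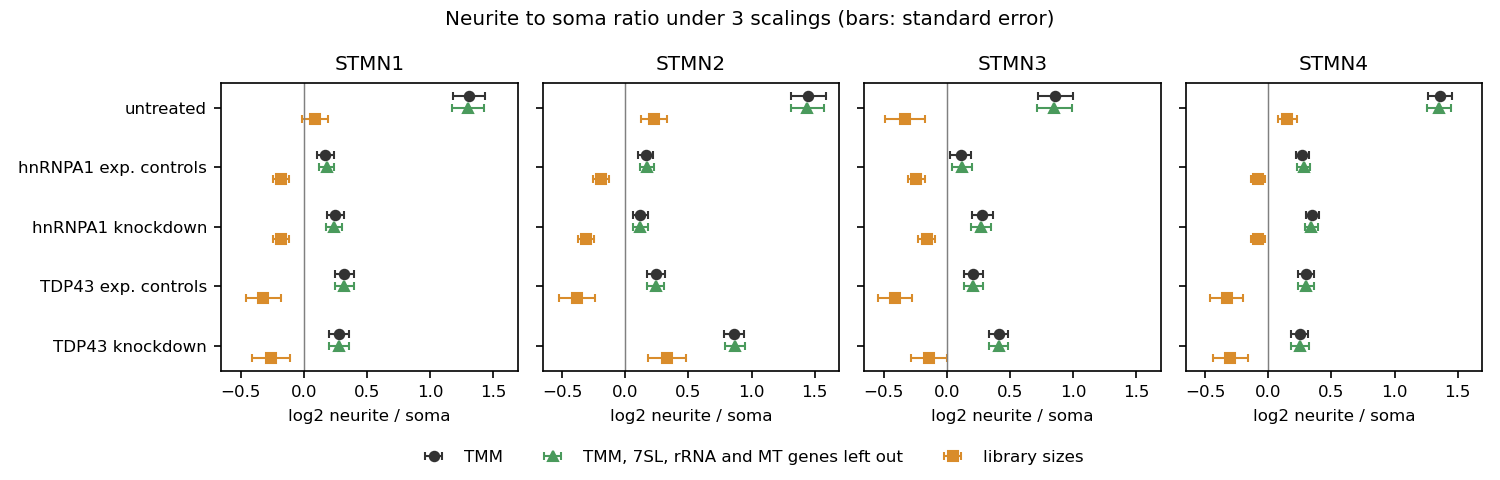
Log2 ratio of neurite to soma levels (x axis, bars for SE) of each stathmin in the 5 arms under 3 scalings. TMM with and without 7SL, ribosomal and mitochondrially encoded RNA gives positive ratios. With library sizes STMN3 in untreated neurons and all ratios of the knockdown experiments are negative, except that of STMN2 after TDP43 knockdown (0.33).

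The neurite to soma ratio was higher in untreated neurons than in hnRNPA1 experiment controls by 0.87, 1.02, 0.49 and 0.83 for STMN1 to STMN4, and than in TDP43 experiment controls by 0.80, 1.01, 0.46 and 0.87 (SE 0.11 to 0.18). They come from a joint fit with its own TMM scaling, so they need not equal differences of the ratios given above. The medians over all genes were −0.41 and −0.48 there. All 8 differences passed in edgeR, where 37.1 and 37.4% of all genes were called and 13.2 and 13.5% called higher, and they share the untreated libraries. With library sizes STMN3 no longer passed in either comparison (−0.10 and 0.08), and STMN1 and STMN4 no longer passed against hnRNPA1 controls (0.28 and 0.24). Kit version differs between these experiments and cannot be told apart from them. Between the 2 sets of controls no member passed in edgeR, where 3.11% of all genes did, and the unadjusted p ran from 0.585 to 0.938.

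Among the genes around the stathmins, several of the tubulins they bind fell with TDP43 knockdown on the TMM scale. Of 11 tubulins tested, 0 rose and 4 fell in soma, with a median log2 change of −0.25, and 0 rose and 7 fell in neurites, with a median of −0.33, while the medians of all genes were 0.02 and −0.03 and 9.55 and 10.8% of all genes were called lower. In soma TUBB4A (−0.42 ± 0.09), TUBB2A (−0.36 ± 0.13) and TUBB (−0.28 ± 0.07) fell most. In neurites TUBA1A (−0.45 ± 0.13), TUBB2A (−0.38 ± 0.12) and TUBB4A (−0.38 ± 0.09) did. With library sizes 0 tubulins passed in either fraction, with medians of −0.25 and −0.25, where 1682 and 2585 of 22080 genes were called. After hnRNPA1 knockdown 0 of 11 passed in soma, where 7.07% of all genes were called. In neurites, where 16.1% were called, 1 passed, TUBB3, which rose by 0.40 ± 0.08.

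Among other genes known for cryptic splicing after TDP-43 loss, more fell than rose. This list was drawn up from published TDP-43 targets, with earlier results of these data known. Of 20 tested, 3 rose and 12 fell in TDP43 knockdown soma, with a median of −0.34, and 4 rose and 12 fell in neurites, with a median of −0.34. Of all genes 9.55% fell in soma and 10.8% in neurites. ELAVL3, a neuronal RNA-binding protein (−1.55 ± 0.06), INSR, the insulin receptor (−1.50 ± 0.05), and PFKP, a glycolytic enzyme (−1.21 ± 0.11), fell most in soma, less than STMN2. In neurites INSR (−1.08 ± 0.06), PFKP (−0.90 ± 0.13) and ELAVL3 (−0.77 ± 0.06) did. AGRN, which organises neuromuscular synapses, rose by 0.55 ± 0.09 in soma and 0.80 ± 0.09 in neurites. With library sizes 1 rose and 9 fell in soma and 3 rose and 9 fell in neurites. On that scale 907 and 791 of all 22080 genes were called lower. After hnRNPA1 knockdown 1 rose and 3 fell in soma, where 7.07% of all genes were called. In hnRNPA1 knockdown neurites 3 rose and 3 fell (0 and 5 with library sizes), where 16.1% of all genes were called with TMM. With library sizes 610 of all 19830 genes rose there and 3801 fell.

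Of 18 kinases and phosphatases that act on stathmins, 0 rose and 4 fell in TDP43 knockdown soma, where 9.55% of all genes were called lower. Among the 4 were CAMK2A (−0.65 ± 0.09) and PRKACB, a catalytic subunit of protein kinase A (−0.59 ± 0.06). In neurites 3 rose, among them UHMK1 (0.35 ± 0.07), and 2 fell, PRKACB (−0.33 ± 0.06) and MAPK9 (−0.15 ± 0.05), where 24.7% of all genes were called. After hnRNPA1 knockdown 0 rose and 2 fell in soma, MAPK3 (−0.20 ± 0.06) and MAPK10 (−0.19 ± 0.05), where 653 of 19830 genes were called lower. In hnRNPA1 knockdown neurites 1 rose and 6 fell, among them CAMK2A (−0.41 ± 0.10). There 16.1% of all genes were called, and 1426 of 19830 were lower. With library sizes 0 rose and 12 fell in those neurites, and 0 rose and 2 fell in TDP43 knockdown soma and 1 and 0 in its neurites. Of all genes on that scale, 3801 of 19830 were lower in hnRNPA1 knockdown neurites and 907 of 22080 in TDP43 knockdown soma. In TDP43 knockdown neurites 1794 were higher. With TMM the list medians lay between −0.10 and −0.06 in the 4 comparisons of knockdown with control.

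The axon survival and stress kinase pathway includes NMNAT2, an enzyme of NAD synthesis that keeps axons alive, and the kinases above JNK. Of 16 genes, 1 rose and 2 fell in TDP43 knockdown soma, a share near the 18.9% of all genes called there, and 4 rose and 3 fell in neurites, where 24.7% were called. NMNAT2 rose by 0.29 ± 0.06 in soma and 0.39 ± 0.06 in neurites, and MAP2K4, a kinase that activates JNK, fell by 0.33 ± 0.06 and 0.36 ± 0.06. MAPK8IP3, a JNK scaffold of axonal transport, rose by 0.55 ± 0.07 in neurites. After hnRNPA1 knockdown 1 of the 16 rose in soma, JUN (0.33 ± 0.09), where 3.77% of all genes were called higher. In neurites 2 rose, MAPK8IP1 (0.34 ± 0.08) and ATF3 (0.38 ± 0.10), where 8.9% were called higher, and 0 fell in either fraction. With library sizes 0 of the 16 passed in TDP43 knockdown soma, 2 rose and 1 fell in its neurites, and 1 rose and 4 fell in hnRNPA1 knockdown neurites. Of all genes on that scale, 1682 of 22080 were called in TDP43 knockdown soma. In its neurites 1794 rose and 791 fell, and in hnRNPA1 knockdown neurites 610 of 19830 rose and 3801 fell.

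Some axon growth genes and other microtubule regulators rose in TDP43 knockdown neurites. Of all genes 13.9% rose there. Of 16 axon growth genes 7 rose and 0 fell, led by L1CAM, an adhesion molecule (0.65 ± 0.07), DCX, a microtubule-binding protein (0.40 ± 0.08), and NCAM1 (0.39 ± 0.07). Of 27 microtubule regulators 8 rose and 0 fell, led by FIGN, a severing enzyme (0.58 ± 0.10), CLASP1, a plus-end protein (0.51 ± 0.07), and TTBK1, a kinase of tau and tubulin (0.49 ± 0.07). With library sizes 3 rose and 0 fell in each of the 2 lists, where 1794 of all 22080 genes rose. In TDP43 knockdown soma the counts were 1 and 0 (CAP2, 0.59 ± 0.10) and 2 and 3, with FIGN at 0.60 ± 0.09 and MAPT, the gene of tau, at −0.32 ± 0.06. There 18.9% of all genes were called.

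The same 2 lists had more members higher than lower in untreated neurites than in soma with TMM, and the reverse with library sizes. Of 16 axon growth genes 11 were higher and 0 lower with TMM, and 1 higher and 15 lower with library sizes. Of all 18577 genes 5331 were higher with TMM, and 14828 were lower with library sizes. CFL1, the actin-severing protein cofilin, had the highest ratio (2.09 ± 0.11), followed by CAP2 (0.84 ± 0.13) and GAP43 (0.74 ± 0.11). Of 27 microtubule regulators 17 were higher and 2 lower with TMM, and 5 higher and 21 lower with library sizes, with TBCA (2.64 ± 0.14) and TBCB (2.26 ± 0.11), tubulin folding cofactors, at the top. Tubulins were 4 higher and 1 lower with TMM and 0 higher and 11 lower with library sizes.

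The genes whose levels followed each member most closely were found over the 51 libraries among 16010 genes, after the mean of each experiment was subtracted from log2 CPM. They share libraries, depth and fraction, so these correlations only describe. For STMN1 they were YWHAE, a 14-3-3 protein (r = 0.969), PPIA (0.959) and UBB, a ubiquitin gene (0.955). For STMN2 they were RANBP1, a regulator of nuclear transport (0.938), DNAAF9 (0.902) and CYFIP2, a subunit of an actin regulator (0.893). For STMN3 they were SEPTIN9 (0.951), PALM, a membrane protein (0.930), and PCBP4 (0.930), and for STMN4 C19orf53 (0.932), MRFAP1 (0.931) and RAI14 (0.928). Within the family the correlation was highest between STMN1 and STMN4 (0.890) and lowest between STMN2 and STMN3 (0.222).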

How the data were processed

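RNA-seq of 52 libraries was deposited as 1 table of expected counts per gene. The authors made it by alignment to hg38 with STAR 2.7.11b and counting with featureCounts of Subread 2.0.6, per the submitters' processing notes. The annotation, strand use and treatment of reads with several matches were not given in the sources used here. Whole numbers (within 0.005) made up 81.1% of nonzero values, so some reads were counted as fractions. Counts were rounded to whole numbers. Libraries under 100000 counts were left out (1 of 52). Of the identifiers 62030 had a listed name, and positions came from GENCODE release 29.

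Each experiment was fitted with edgeR 4.0.16 in R 4.3.3 (TMM, filterByExpr, 1 coefficient per group, 2-sided quasi-likelihood F tests). Joint fits gave differences between experiments. Adjusted p are Benjamini-Hochberg over all genes of a contrast, with calls under 0.05. The STMN2 to STMN1 ratio added 0.5 to each count and was tested by exact permutation over 9 comparisons. The edgeR tests were also run on simulated counts in which a small set of genes changed, up or down at random. Most genes were equal between groups there, so the simulation cannot decide between TMM and library sizes. Alternatives were library sizes, TMM without 7SL, ribosomal and mitochondrially encoded RNA, no low count filter, DESeq2 1.42.0, the sample number as a block, leaving out single libraries in fits of 1 experiment, and, chosen after seeing the data, exon union length. Leaving out hnRNPA1 libraries was also added after seeing the data, and joint fits were not rerun without single libraries. The 4 members and the gene lists were chosen with earlier results of these data known. All members were named, and of each list at most 3 called genes with the largest changes in each direction, except 1 gene that is not reported here.

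Whether sample numbers pair libraries was checked by the correlation of same-numbered deviations from group means. It passed 0.1 in every pair for TDP43 knockdown with control soma alone (3 pairs, 0.126 to 0.138), where the block changed no call of a member. Each library also correlated best with its own number between fractions of untreated neurons (4 pairs, 0.056 to 0.094) and after TDP43 knockdown (4 pairs, 0.068 to 0.139). Pairing is therefore not settled there, and the block changed no member call between those fractions.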

Additional observations from a re-analysis of the deposited data

Results flagged for a closer look

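STMN2 differed in its response to TDP43 knockdown between fractions, by 0.62 on the log2 scale (interaction test). The effects of the 2 knockdowns differed for STMN2 by 1.99 in soma and 1.33 in neurites, and for STMN4 by 0.46 and 0.58 (log2, hnRNPA1 minus TDP43, tested in the joint fit). The neurite to soma ratio was higher in untreated neurons than in hnRNPA1 experiment controls by 0.87 for STMN1, 1.02 for STMN2, 0.49 for STMN3 and 0.83 for STMN4. Against TDP43 experiment controls it was higher by 0.80 for STMN1, 1.01 for STMN2, 0.46 for STMN3 and 0.87 for STMN4.

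Single libraries stood apart from their group in 3 of 50 groups of values checked by Dixon's criterion, and chance gives about 1 in 20. STMN1 was highest, at 830.0 CPM, in hnRNPA1 knockdown soma replicate 1. STMN2 was highest, at 895.5 CPM, in hnRNPA1 control neurite replicate 4. The log2 ratio of STMN2 to STMN1 was highest, at 0.30, in hnRNPA1 control soma replicate 3.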

How the results depend on the processing

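Scaling was the choice that mattered most. With library sizes in place of TMM, 26 of 64 results for single members kept direction and side of the threshold, 28 changed sign, 9 were no longer past the threshold and 1 newly passed. The neurite to soma ratios (log2, STMN1 to STMN4) were then 0.09, 0.23, −0.33 and 0.15 in untreated neurons, −0.18, −0.19, −0.24 and −0.08 in hnRNPA1 experiment controls, and −0.18, −0.31, −0.16 and −0.08 after hnRNPA1 knockdown. They were −0.32, −0.38, −0.41 and −0.33 in TDP43 experiment controls and −0.26, 0.33, −0.14 and −0.30 after TDP43 knockdown. For hnRNPA1 knockdown STMN1 was −0.02 in both fractions, STMN2 −0.21 and STMN3 0.15 in neurites, and the STMN4 interaction 0.00. For TDP43 knockdown in neurites STMN1 was 0.03, STMN3 0.33 and STMN4 −0.10, and the interactions of STMN1, STMN2 and STMN4 were 0.06, 0.71 and 0.04. The difference of the 2 knockdowns in neurites was −0.05 for STMN1 and −0.18 for STMN3. Untreated neurons against hnRNPA1 controls gave ratio differences of 0.28, −0.10 and 0.24 for STMN1, STMN3 and STMN4, and against TDP43 controls 0.08 for STMN3. Between both sets of controls STMN1, STMN2 and STMN3 gave 0.14, 0.19 and 0.17. The cause of these shifts was not tested. The STMN2 loss after TDP43 knockdown was −2.04 and −1.33, and the STMN4 rise after hnRNPA1 knockdown 0.27 and 0.27, each past the threshold.

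Counts of genes called moved with library sizes as well. The numbers higher and lower in neurites went from 5331 and 5160 to 2114 and 14828 (16942 in all, from 10491) in untreated neurons, and from 4658 and 4929 to 1921 and 12097 in hnRNPA1 controls. They went from 3844 and 3266 to 1167 and 13313 (14480 from 7110) after hnRNPA1 knockdown, from 5321 and 4936 to 1903 and 14550 (16453 from 10257) in TDP43 controls, and from 6324 and 6409 to 2179 and 13574 after TDP43 knockdown. Knockdown of hnRNPA1 went from 748 and 653 to 491 and 736 in soma and from 1764 and 1426 to 610 and 3801 in neurites. Knockdown of TDP43 went from 4174 to 1682 genes in soma and from 3063 and 2381 to 1794 and 791 (2585 from 5444) in neurites. Its interaction went from 1280 and 1028 to 132 and 203 (335 from 2308). The hnRNPA1 interaction, 35 genes, became 68, 158 without a low count filter, 78 with DESeq2 and 55 with the replicate block. The difference of the knockdowns went from 2913 to 1297 genes in soma and from 1444 and 2399 to 463 and 3449 in neurites. Ratio differences went from 3876 and 7051 to 1995 and 14168 (DESeq2 4629 and 4100) for untreated against hnRNPA1 controls, from 3972 and 7056 to 2339 and 12291 (DESeq2 4648 and 5103) against TDP43 controls, and from 483 and 433 to 1064 and 316 (1380 from 916) between the controls.

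Other settings changed little. Without 7SL, ribosomal and mitochondrially encoded RNA, 63 of 64 member results kept direction and call, and STMN4 in TDP43 knockdown neurites was −0.17 and not past the threshold. Without the low count filter 60 did, and the neurite to soma ratios of STMN2 (0.16) and STMN3 (0.13) in TDP43 controls and of STMN4 after TDP43 knockdown (0.15), and STMN4 in TDP43 knockdown neurites (−0.19), no longer passed. With DESeq2 63 did, and STMN4 between the controls was −0.01. With the replicate block, STMN3 was 0.00 in TDP43 knockdown soma, and in TDP43 knockdown neurites STMN3 (0.20) and STMN4 (−0.19) no longer passed. No other member call changed with the block. Outside TDP43 knockdown with control soma the correlation did not pass 0.1 in every pair. The lowest and highest correlations of same-numbered libraries were −0.262 and 0.483, both between fractions of hnRNPA1 controls, and each library correlated best with its own number in untreated neurons and between fractions after TDP43 knockdown.

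Paired by number, the ratio of STMN2 to STMN1 was −0.13 between fractions and −0.08 in soma and −0.19 in neurites for hnRNPA1 knockdown, and 0.56 between fractions, −2.02 in soma and −1.32 in neurites for TDP43 knockdown. None of these passed, and pairing allows no p below 0.0312 with 6 pairs, 0.0625 with 5, 0.125 with 4 and 0.25 with 3. Leaving out single libraries gave −0.23 to −0.12 for STMN4 and 0.20 to 0.31 for STMN3 in TDP43 knockdown neurites, and 0.18 to 0.25 for the STMN3 ratio of fractions in TDP43 controls. STMN1 ran from −0.05 to 0.02 in TDP43 knockdown soma, from −0.10 to 0.00 in neurites and from −0.08 to 0.03 in the interaction, where STMN4 ran from −0.09 to 0.01. The STMN2 to STMN1 ratio ran from 0.53 to 0.63 between fractions after TDP43 knockdown and from −2.04 to −1.98 in its soma. With 3 knockdown soma libraries neither passed (adjusted exact permutation p = 0.0536). The groups still did not overlap there, and the unadjusted p was the smallest these group sizes allow. STMN2 stayed past the threshold without any single TDP43 library in both fractions, from −1.47 to −1.37 in neurites. In the hnRNPA1 experiment, where leaving out libraries was added after seeing the data, STMN4 stayed past the threshold, from 0.29 to 0.36 in soma and from 0.37 to 0.43 in neurites. STMN3 in knockdown neurites ran from 0.22 to 0.31, STMN1 in knockdown soma from −0.02 to 0.07 and the STMN2 interaction from −0.06 to 0.03. The ratio of fractions ran from 0.13 to 0.20 for STMN1 and from 0.13 to 0.18 for STMN2 in controls, and from 0.10 to 0.19 for STMN2 after knockdown. The STMN2 to STMN1 ratio ran from −0.09 to −0.05 in knockdown soma and from −0.03 to 0.02 between fractions of controls. Genes called in the interaction ran from 12 (without knockdown neurite replicate 2) to 73 (without control soma replicate 3).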
